A study of Mus musculus with 8 samples.

Results

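The 42 genes described here encode lineage regulators of the basic helix-loop-helix (bHLH) class of transcription factors. They were taken as a named list, and all 42 are among the 21352 genes of the deposited files and lie on autosomes. By role, 19 belong to neural families (Neurog, Neurod, Ascl, Atoh, Olig, Bhlhe22 and Bhlhe23, Ptf1a, Nhlh), 4 are the muscle determination factors, 10 act in mesoderm and its derivatives, and 9 are Hes and Hey genes. The measurements are low-input CUT&RUN reads from sorted primordial germ cells of the mouse, from which the gametes derive. In this assay an antibody brings a micrococcal nuclease to its target in nuclei, and the released fragments are sequenced. One antibody was against H3K27me3 and the other was IgG, which records untargeted cleavage.

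All embryos were B6 x Cast hybrids, and each library came from cells sorted out of embryos that had been pooled within a sex. H3K27me3 was profiled in females of genotype Xist KO/+:Oct4-eGFP+/- of stages E11.5 and E12.5. IgG was profiled in males of genotype Xist KO/Y:Oct4-eGFP+/- at E11.5, and in Xist KO/+:Oct4-eGFP+/- females of stages E12.5 and E13.5. Every group, the controls included, therefore carried the Xist knockout and the Oct4-eGFP transgene, and no sample without them was analysed. Each of these 5 groups had 1 library with a file, and 3 further samples of the labels (replicates numbered 2 of the H3K27me3 groups) were not analysed here. There was thus no replicate check, no p-value is given, and every interval is a 95% interval that covers counting error only.

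H3K27me3 is the histone mark deposited by Polycomb repressive complex 2, and it typically covers the CpG-rich starts of developmental regulator genes in cells that do not use them. Proteins of the bHLH class bind E-box DNA as dimers, and most lineage-restricted members pair with broadly expressed E proteins. Proneural and myogenic members drive differentiation, whereas Hes and Hey proteins are repressors that act downstream of Notch signalling. Germ cells descend from epiblast cells that could also form neural tissue, muscle and mesoderm.

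The files count only reads assigned to one of both parental alleles, over each gene. A level is the number of reads of both alleles per 1000000 such reads on chromosomes 1 to 19 (RPM), which numbered 2356356 and 5020062 in the H3K27me3 libraries in order of stage. The IgG libraries held 1357583, 1515532 and 5705401. In RefSeq, 12 members overlap another annotated gene, among them Atoh8, Olig2, Tcf21, Twist2, Hey2, Hes7 and Hes3, and reads in such an overlap cannot be assigned to one of them. Because most members are short, with few IgG reads, the main background was the 3 IgG libraries with reads summed, and a gene was counted with at least 10 IgG reads there. The folds at both stages therefore share their control. Of the 42 members 32 were counted. Neurog3, Neurod1, Tcf15, Scx and Hes1 had no read in any of the 5 libraries, and Ptf1a, Hand1, Twist1, Hes5 and Hey1 had between 2 and 9 IgG reads. Because these 0 counts hold in IgG as well as in H3K27me3, they say nothing of the mark at these genes. Whether the genes lack a variant that tells the alleles apart was not tested. Over all 18054 autosomal genes counted, the median fold of H3K27me3 over IgG was 0.681 in the E11.5 library and 0.684 in the E12.5 library (-0.55 on the log2 scale at both stages), so a fold of 1 is already above the typical gene.

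The labelled cell type cannot be read directly from a histone mark, since these files hold no expression. Germ cell genes lay low, with 10 of 10 markers (among them Ddx4, Dazl, Dppa3 and Pou5f1) below 1-fold at both stages and medians of 0.501 and 0.516. Of 10 somatic gonad markers, 10 at E11.5 and 9 at E12.5 were at least 2-fold over IgG, with medians of 5.87 and 4.78. The part of somatic cells in the results was not tested. Of 7 counted blood and endothelial markers 2, Tal1 and Runx1, were past 2-fold at both stages, and the medians were 0.889 and 1.03.

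H3K27me3 reads lay far above IgG over most of the bHLH regulators at both stages. At E11.5, 25 of the 32 counted members were at least 2-fold over IgG, and at E12.5 24 were, where the same threshold took 15.6% and 14.8% of all autosomal genes counted. The median fold was 5.95 and 4.35 in order of stage, and no counted member was 2-fold lower at either stage, a threshold that 32.4% and 31.0% of all genes passed. With the lower bound of the interval set at 2-fold, 21 and 20 members were called, as were 11.35% and 10.69% of all genes. The interval lay above 1 for 27 and 25 members, as it did for 22.9% and 25.1% of all genes. Short genes as a class had more such calls: among genes of at most 6 kb, 26.1% and 25.3% were past 2-fold, and 21 and 20 of the 26 members of that length were. With the E11.5 IgG library alone as control, the median member fold was 5.761 and 4.364, and with the E13.5 one it was 6.675 and 5.277. With the E12.5 IgG library alone as control, 25 and 22 members were past 2-fold, as were 15.12% and 15.41% of all genes. The median member fold over that library was lower, at 4.444 and 3.398. That library itself stood higher over these genes than the other IgG libraries, with a median member ratio of 1.38 against 1.08 over all genes, and with 6 of 30 members at least 2-fold higher, as were 6.1% of all genes. For the E11.5 and E13.5 IgG libraries against the others, 1 of 31 and 1 of 21 members were, where 1.47% and 0.566% of all genes were.

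**Figure D1:**
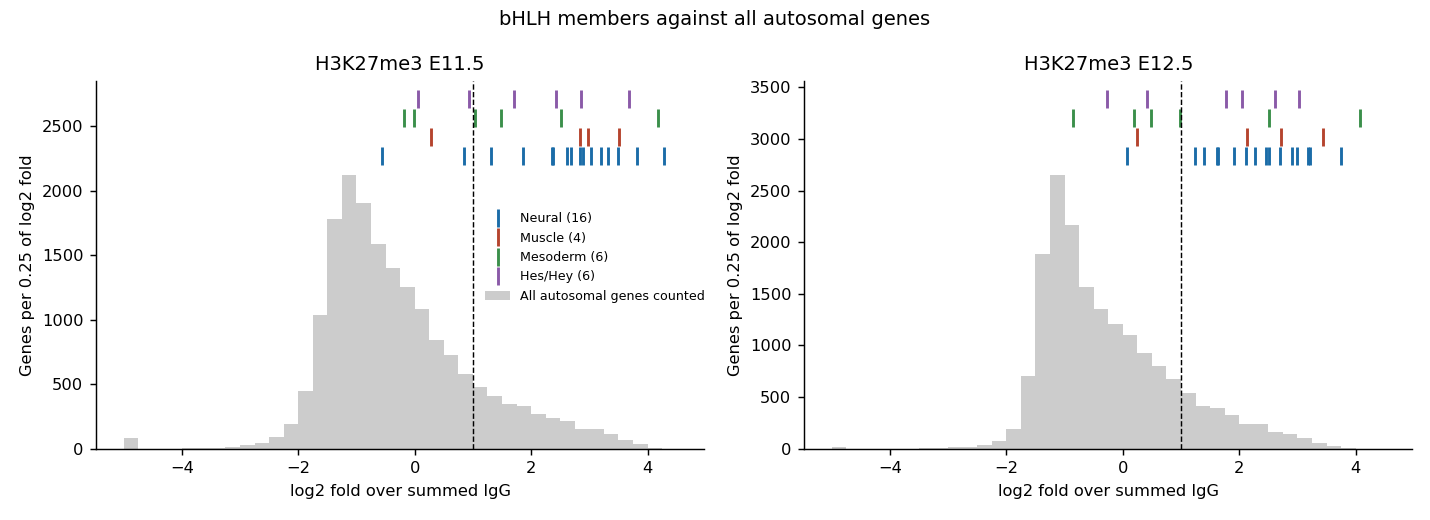
The histograms give the number of autosomal genes per 0.25 of log2 fold over summed IgG in each H3K27me3 library (genes with no H3K27me3 read are drawn in the lowest bin), and the coloured ticks above them are the 32 counted members by group. The dashed line marks 2-fold, and 25 ticks at E11.5 and 24 at E12.5 lie to its right, while most genes lie to its left.

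Summed over all 42 members, 2739 and 4840 reads in the H3K27me3 libraries stood against 370, 467 and 1270 in IgG, in order of stage. These are 1162 and 964 RPM in H3K27me3, and 273, 308 and 223 in IgG. The summed fold was 4.73 (4.47 to 5.01) and then 3.93 (3.73 to 4.13). Both H3K27me3 libraries were above all 3 IgG libraries in each of the 4 groups, with no overlap of intervals.

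**Figure D2:**
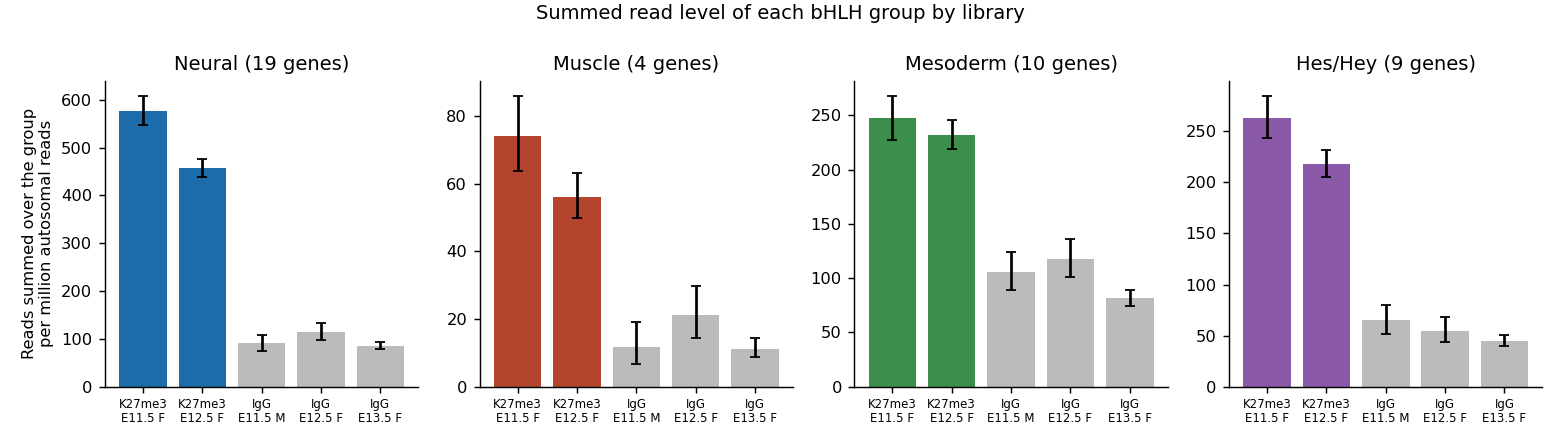
Bars give the reads summed over each group in RPM in the 5 libraries, with exact Poisson 95% intervals, each panel on its own linear scale from 0. In every panel both coloured H3K27me3 bars exceed the grey IgG bars, and the mesoderm panel has the highest IgG bars relative to H3K27me3, with Twist2 supplying 62.3% of that group's E12.5 reads.

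The promoters of 4 members are shown because they span the range of the mark: Neurod2 and Tcf21 had the highest folds, Neurog1 a high fold with the most CG pairs among counted members, and Mesp2 the lowest fold at E12.5. Each is the 250 bases before the RefSeq start site on the gene's own strand (GRCm38.p6), with CG in capitals. In the order of printing they lie at chr11:98329646-98329895 (minus strand), chr13:56252181-56252430 (minus strand), chr10:22820144-22820393 (minus strand) and chr7:79810477-79810726 (plus strand). The files give reads per gene and none for these upstream bases.
Neurod2: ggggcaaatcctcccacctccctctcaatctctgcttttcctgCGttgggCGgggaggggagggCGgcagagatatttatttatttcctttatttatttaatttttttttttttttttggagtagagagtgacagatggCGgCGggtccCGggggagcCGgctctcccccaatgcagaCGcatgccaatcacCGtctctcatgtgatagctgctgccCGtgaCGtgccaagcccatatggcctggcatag
Neurog1: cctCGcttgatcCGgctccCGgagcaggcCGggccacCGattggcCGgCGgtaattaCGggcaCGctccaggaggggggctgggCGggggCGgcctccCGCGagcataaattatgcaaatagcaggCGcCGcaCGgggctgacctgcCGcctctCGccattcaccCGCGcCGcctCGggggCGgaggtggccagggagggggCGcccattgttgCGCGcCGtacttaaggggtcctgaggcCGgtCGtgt
Tcf21: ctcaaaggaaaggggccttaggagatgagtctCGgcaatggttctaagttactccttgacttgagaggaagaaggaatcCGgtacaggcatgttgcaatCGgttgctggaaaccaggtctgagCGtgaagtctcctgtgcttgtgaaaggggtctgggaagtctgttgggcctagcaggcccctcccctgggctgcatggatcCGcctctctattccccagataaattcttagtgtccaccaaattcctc
Mesp2: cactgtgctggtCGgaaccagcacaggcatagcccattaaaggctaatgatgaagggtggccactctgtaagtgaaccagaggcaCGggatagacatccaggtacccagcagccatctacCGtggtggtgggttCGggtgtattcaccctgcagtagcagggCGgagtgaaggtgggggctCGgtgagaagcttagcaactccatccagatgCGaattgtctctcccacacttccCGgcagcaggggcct

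High folds were found both at members with many and at members with few CG pairs in the 250 bases before the start. For some members, among them Myf5 and in part Nhlh2, these bases lie inside the gene's RefSeq span. CG pairs over the rest of the genes, where the reads were counted, were not examined. Neurog1 had 29 CG pairs in the 250 bases, Neurod2 11, Mesp2 8 and Tcf21 5. Among 29 members with a RefSeq promoter the median was 11 CG pairs (2 to 32), and over 27025 genes it was 6 (taking the highest value where a gene has several promoters). Of the 7 counted members with at most 4 CG pairs, 6 at E11.5 and 5 at E12.5 were past 2-fold, among them Myf5, Nhlh1 and Nhlh2. Of the 4 with 20 or more, 4 and 3 were. Over all genes, 16.5% and 17.9% of those with at most 4 CG pairs were past 2-fold, against 10.5% and 9.12% of those with 20 or more. An E-box (CANNTG, a palindromic pattern) was found in 19 of the 29 member promoters, 65.5%, and in 69.3% of all. The N-box CACNAG, on either strand, was found in 24.1% of member promoters and 40.1% of all. These matches are letters in a window and not binding sites.

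Among the neural genes, 14 and then 15 of the 16 counted members were at least 2-fold over IgG, with median folds of 6.78 and 5.15. Neurod2, which acts in maturing cortical neurons (chromosome 11, 98325415 to 98329645), had 25.04 and 17.1 RPM in the H3K27me3 libraries in order of stage, and 2.21, 1.32 and 1.05 in the 3 IgG libraries. Its fold of 19.5 (10.2 to 41.2) at E11.5 was the highest of all 18054 genes, and at E12.5 it was 13.4 (7.11 to 27.8). These rest on 11 IgG reads, just over the minimum of 10. Neurod4, a later differentiation factor, had 13.2 and 17.3 RPM against 5.16, 2.64 and 9.11 in IgG, with folds of 1.79 (1.126 to 2.80) and 2.36 (1.69 to 3.32). Neurod6 stood at 2.49 and 3.06.

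The proneural genes that start neurogenesis were marked as well. Neurog1, a determination factor of sensory neurons (chromosome 13, 56250478 to 56252180), had 31.4 and 20.1 RPM against 2.95, 3.30 and 1.75 in IgG, so that both H3K27me3 values lay far above every IgG value. Its folds were 14.2 (8.47 to 24.9) and 9.08 (5.53 to 15.7). Neurog2, its relative in the cortex and spinal cord, stood at 6.40 and 3.77. It had 21.6 and 12.75 RPM against 2.21, 7.92 and 2.45 in IgG. At E12.5 it was thus less than 2-fold over the E12.5 IgG library alone. Atoh1, required for cerebellar granule cells and inner ear hair cells, stood at 7.43 and 7.93. Atoh7, the retinal ganglion cell factor, stood at 3.64 (1.98 to 6.70) and 2.63 (1.54 to 4.60), and was among the 3 lowest neural members at E12.5. It had 10.2 and 7.37 RPM against 2.21, 4.62 and 2.45 in IgG. Like Neurog2, it was less than 2-fold over the E12.5 IgG library alone at E12.5.

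Olig genes, which act in motor neuron and oligodendrocyte progenitors, had folds of 11.2 and 9.33 for Olig2, 6.16 and 4.34 for Olig1 and 5.14 and 3.12 for Olig3. Olig2 (chromosome 16, 91225550 to 91228677) had 34.0 and 28.3 RPM in H3K27me3, and 2.95, 1.32 and 3.51 in IgG. Bhlhe23 and Bhlhe22, which act in retinal and cortical neurons, had folds of 9.99 and 7.54 (Bhlhe23) and of 8.19 and 4.81 (Bhlhe22). Nhlh1 and Nhlh2, expressed in newborn neurons, had folds of 5.22 and 6.51 (Nhlh1) and of 9.21 and 5.69 (Nhlh2).

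Atoh8, an atonal relative used in several tissues, had the deepest coverage, with 532 and 872 H3K27me3 reads and 271 IgG reads over its 29401 bases. Its folds of 7.15 (6.16 to 8.30) and 5.50 (4.79 to 6.32) were the most precise of the neural group. It held 38.0% of the group's reads at E12.5, and without it the summed neural fold was 5.90 and 4.76, against 6.33 and 5.02 with it. Ascl4 was the neural member with the lowest fold, at 0.680 (0.380 to 1.15) and 1.05 (0.740 to 1.48). The files give it 18526 bases where its RefSeq span is 2248, so most bases counted for it lie outside that span. Ptf1a, a pancreatic and cerebellar factor, had 1 and 5 H3K27me3 reads and 2 IgG reads, too few to place it.

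Of the 4 muscle regulators, 3 were marked and 1 was not told apart from IgG. Myf5, the earliest myogenic factor (chromosome 10, 107482908 to 107486927), had 18.7 and 17.7 RPM against 2.95, 1.98 and 1.23 in IgG, with folds of 11.4 (6.15 to 22.6) and 10.9 (6.15 to 20.7). Myf6, which lies 5.92 kb away, stood at 7.89 and 6.55. Myod1, the determination factor on chromosome 7 (46376474 to 46379092), had 39.0 and 23.9 RPM against 2.21, 9.24 and 5.26, with folds of 7.13 (4.96 to 10.4) and 4.36 (3.09 to 6.25). Myog, which acts later, at terminal muscle differentiation (chromosome 1, 134290004 to 134292548), had 5.52 and 5.38 RPM in H3K27me3 and 5.16, 9.24 and 3.16 in IgG. Its H3K27me3 values thus lay within the IgG range, and its folds were 1.21 (0.594 to 2.32) and 1.18 (0.697 to 1.98).

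The mesoderm group was split. Tcf21, a regulator of visceral mesoderm and of the gonad (chromosome 10, 22817263 to 22820143), had 48.4 and 45.4 RPM against 3.68, 4.62 and 1.93 in IgG. Its folds were 18.04 (11.4 to 29.6) and 16.9 (11.01 to 27.3), the latter the highest of all genes counted at E12.5. Hand2, of the heart and limb, stood at 5.73 (3.80 to 8.75) and 5.72 (4.00 to 8.37). Twist2, a dermal and connective tissue regulator that spans 46568 bases, was close to the threshold with 2.06 (1.80 to 2.35) and 1.98 (1.776 to 2.205).

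Mesp2 and Msc had the lowest folds of the 6 counted mesoderm members at both stages. Mesp2, which acts in somite segmentation (chromosome 7, 79810727 to 79813431), had 3.82 and 2.39 RPM against 4.42, 3.30 and 4.56 in IgG, and its folds were 0.886 (0.376 to 1.87) and 0.554 (0.263 to 1.09). Mesp1, its neighbour 17.1 kb away and a factor of early cardiac mesoderm, stood at 2.78 (1.24 to 6.09) and 1.41 (0.642 to 3.03). Msc, expressed in head muscle precursors, was at 0.993 and 1.14. Twist1, a regulator of cranial mesenchyme, and Hand1, of the heart and placenta, were under the IgG minimum but had more H3K27me3 reads than IgG. Twist1 had 12 and 20 reads against 5 IgG reads in all, a fold of 8.74 (2.87 to 31.7) and 6.84 (2.49 to 23.3). Hand1 had 8 and 10 reads against 4, a fold of 7.28 (1.95 to 33.0) and 4.27 (1.23 to 18.7). The 6 counted mesoderm members had medians of 2.42 and 1.69, and all 8 with an IgG read had 4.26 and 3.13, both below the neural and muscle medians with either minimum. The summed mesoderm fold was 2.70 and 2.535, and without Twist2 it was 5.22 (4.245 to 6.43) and 4.73 (3.94 to 5.71). Summed muscle folds were 5.69 (4.46 to 7.28) and 4.30 (3.445 to 5.405). Neural ones without Atoh8 were 5.90 (5.28 to 6.60) and 4.76 (4.30 to 5.28). Without these long genes the intervals overlapped at each stage, so summed reads do not rank mesoderm below neural or muscle genes.

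In the Hes and Hey group 4 of 6 counted members, Hes2, Heyl, Hey2 and Hes7, were past 2-fold at both stages, and the medians were 4.32 and 3.77. Hes2 (chromosome 4, 152158867 to 152162469) had 73.4 and 46.8 RPM against 6.63, 7.92 and 4.91 in IgG, with folds of 12.9 (9.31 to 18.03) and 8.20 (6.002 to 11.4). Heyl, a Notch target in vessels and muscle, had 115 and 97.4 RPM against 22.8, 13.9 and 14.7, with folds of 7.28 (5.91 to 9.01) and 6.14 (5.07 to 7.49). Hey2, of the developing heart, stood at 3.27 and 4.12, and Hes7, the oscillator of the segmentation clock, at 5.38 and 3.42.

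Hes6 and Hes3 were the lowest counted. Hes6, which opposes Hes1 in neural differentiation, was at 1.04 (0.459 to 2.15) and 0.830 (0.436 to 1.52), and Hes3, active in neural progenitors, at 1.90 (1.22 to 2.93) and 1.34 (0.911 to 1.97). Hey1 had 1 and 0 H3K27me3 reads against 9 IgG reads, and the interval of its fold at E12.5, 0 to 0.866, lay below 1. The 0 itself allows up to 0.598 RPM, taken as 3 reads of the total. Hes5 had 1 and 0 against 3 and could not be placed at this depth. With these genes included, the 8 Hes and Hey members with an IgG read had medians of 2.59 and 2.38. The order of the mesoderm and Hes/Hey medians thus turned with the IgG minimum, and the data do not rank these 2 groups.

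**Figure D3:**
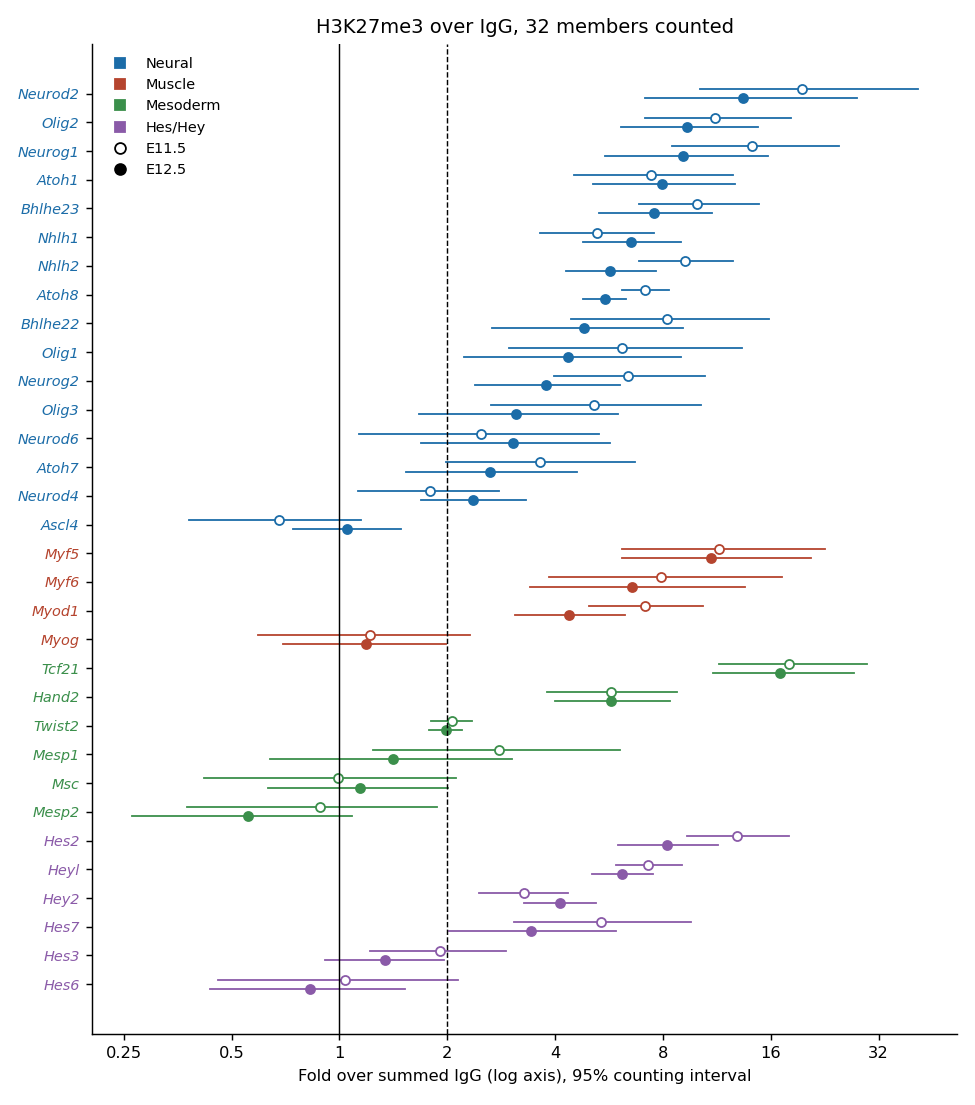
Each row is 1 of the 32 counted members, with its H3K27me3 level over summed IgG at E11.5 (open) and E12.5 (filled) on a log axis and the exact 95% counting interval of the ratio. Neural genes fill the upper rows, where Ascl4 alone is below 2-fold at both stages. In the other groups Myog, Msc, Mesp2, Hes3 and Hes6 are below 2-fold at both stages. Twist2 (2.06 and 1.98) and Mesp1 (2.78 and 1.41) are below it at E12.5 only.

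Levels between genes can be set side by side only per length, and they still carry each gene's unknown density of strain variants. Per kb, the highest levels at E12.5 were 15.7 RPM for Tcf21, 13.6 for Bhlhe23, 12.99 for Hes2, 11.9 for Neurog1 and 10.9 for Atoh1. At E11.5 the highest were Hes2 at 20.4, Neurog1 at 18.6, Bhlhe23 at 18.02 and Tcf21 at 16.7. The lowest per kb among counted members was Ascl4, at 0.389 and 0.602. Over the 37 members with any read, the per-kb levels of the H3K27me3 libraries had a Spearman correlation of 0.964, a description across genes that share variant density and length in both libraries.

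Between the stages, most members had a lower level in the E12.5 library than in the E11.5 library. Of 33 members that had 20 or more reads over the pair of H3K27me3 libraries, 26 were lower and 7 higher at E12.5, and the median ratio was 0.782, against 1.01 over 16526 autosomal genes. At least 1.5-fold lower were 10 members, where 6.7% of all genes were, and 1 was at least 1.5-fold higher, where 6.44% were. None was 2-fold different in either direction, where 1.6% of all genes were that much higher and 1.23% that much lower. The summed level was 0.829-fold (0.791 to 0.870) for all members, 0.792-fold (0.741 to 0.848) for neural, 0.756-fold (0.624 to 0.919) for muscle, 0.828-fold (0.750 to 0.916) for Hes/Hey and 0.939-fold (0.849 to 1.04) for mesoderm, whose interval includes 1.

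The 10 lower members were Mesp1 (0.506), Bhlhe22 (0.587), Neurog2 (0.589), Olig3 (0.606), Myod1 (0.612), Nhlh2 (0.617), Mesp2 (0.626), Hes7 (0.635), Hes2 (0.638) and Neurog1 (0.641). Nhlh2 went from 68.8 to 42.4 RPM (162 and 213 reads), a ratio with an interval of 0.501 to 0.762, and Hes2 from 73.4 to 46.8, with an interval of 0.522 to 0.780. For Mesp1, Olig3, Mesp2 and Hes7 the interval of the ratio included 1. Those of 10 members lay wholly below 1 (10.4% of all genes did), among them the deeply read Atoh8 at 0.769 (0.690 to 0.859) and Heyl at 0.844 (0.726 to 0.982). No interval lay wholly above 1, where those of 7.91% of all genes did. Above 1 were Neurod4, Neurod6, Ascl4, Atoh1, Nhlh1, Msc and Hey2, and of these Ascl4 was past 1.5-fold, at 1.55 (0.885 to 2.84), a call that was lost when 20 reads were required in each library. Hand2 at 0.998, Tcf21 at 0.939, Twist2 at 0.960 and Myf5 at 0.949 were nearly level.

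Genes with the mark in general were lower in the E12.5 library. Over 2670 other genes at least 2-fold over IgG (both H3K27me3 libraries summed), the median ratio was 0.892, and 12.02% were at least 1.5-fold lower. Over the 784 of them that span at most 6 kb it was 0.874, with 18.5% at least 1.5-fold lower. Of the 25 members of any length past that threshold the median was 0.769 and 8 were at least 1.5-fold lower. Of the 20 that span at most 6 kb the median was 0.714, and 8 were at least 1.5-fold lower. Over genes not past it, the median was 1.03. With 1 library per stage, the stage and the library cannot be told apart.

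**Figure D4:**
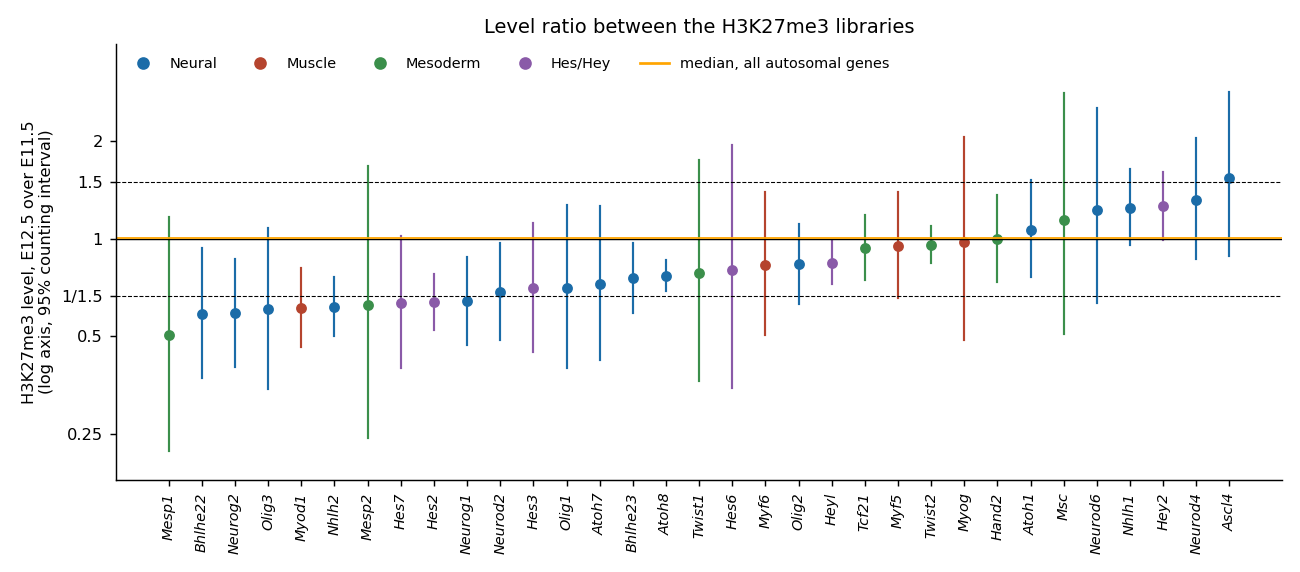
Points give the H3K27me3 level at E12.5 divided by that at E11.5 for 33 members, ordered from lowest to highest on a log axis, with exact 95% counting intervals and dashed lines at 1.5-fold. Of the points 26 lie below 1, while the median of all autosomal genes (orange line, 1.01) lies at 1.

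Summed over all members, 48.3% of reads (46.4 to 50.2) in the E11.5 library and 49.8% (48.3 to 51.2) in the E12.5 library were on the second allele, against 49.7% (47.6 to 51.9) in summed IgG. Over all autosomal genes the share was 51.59%, 50.95% and 51.15% in the same order, and only the E11.5 member interval excludes it. The files do not say which strain is the first or the second. The groups were not all even: the neural share was 46.1% (43.4 to 48.8) and then 49.2% (47.2 to 51.3), and the Hes/Hey share 48.8% (44.8 to 52.8) and then 46.9% (43.9 to 49.9). Atoh8 supplied 532 of the 1360 neural reads at E11.5 and 872 of 2296 at E12.5, with shares of 41.4% and 40.8%. The neural share is thus weighted toward this 1 gene. The mesoderm share was 50.9% (46.8 to 55.1) and then 53.3% (50.3 to 56.2), and the muscle share 54.9% (47.2 to 62.4) and then 50.7% (44.7 to 56.7). Per allele, the summed fold over IgG at E12.5 was 3.92 (3.65 to 4.22) on the first and 3.93 (3.65 to 4.23) on the second, and at E11.5 it was 4.87 (4.49 to 5.28) and 4.60 (4.24 to 4.99).

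Single members departed from an even split mostly at low depth. Of 31 members with at least 10 reads at E11.5, 3 were 20 points or more from 50%, where 9.72% of all autosomal genes were, and of 34 at E12.5 6 were, where 8.22% were. Neurod6 was one of them at both stages, at 92.3% (64.0 to 99.8) and 82.4% (65.5 to 93.2), and its summed IgG share was 89.5% as well. In IgG, 0 of 7 members with enough reads were that far at E11.5, 0 of 13 at E12.5, 4 of 27 at E13.5 and 1 of 32 with reads summed, where 8.48%, 7.58%, 6.05% and 5.4% of all genes were. Atoh7 had 3 of 24 reads on the second allele at E11.5 (interval 2.66 to 32.4%) and 37.8% (22.5 to 55.2) of them at E12.5. Myf6 had 73.1% (52.2 to 88.4) and then 54.3% (39.0 to 69.1). Mesp1 had 28.6% of 14 reads at E12.5, with 35.3% in IgG.

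At E12.5, Ascl4 had 78.6% (65.6 to 88.4) of 56 reads on the second allele and Olig3 80.6% (62.5 to 92.6) of 31, where summed IgG stood at 48.4% and 52.9%. These were the only 2 of 32 members 20 points from their own IgG share in that library, where 6.12% of all genes were. At E11.5 Ascl4 and Olig3 stood at 58.8% (32.9 to 81.6) and 50% (29.1 to 70.9). The fold of Ascl4 over IgG at E12.5 was 1.05 (0.740 to 1.48), so its reads there were not told apart from IgG. Olig1 had 68.2% (45.1 to 86.1) and 72.7% (54.5 to 86.7), with 53.8% in IgG. Hand1 had 10 of 10 reads on the second allele at E12.5 (69.2 to 100), but 2 of 8 at E11.5, and 4 of 4 in IgG.

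Atoh8, with far more reads, was tilted toward the first allele by less than 20 points but at both stages. Its second-allele share was 41.4% (37.1 to 45.7) and then 40.8% (37.5 to 44.2), where summed IgG stood at 50.9% (44.8 to 57.0). The summed IgG interval overlaps that of E11.5 but not that of E12.5. By library, IgG stood at 48.8% (32.9 to 64.9), 43.6% (32.4 to 55.3) and 55.3% (47.0 to 63.3) in order of stage, and the intervals of the first 2 overlap those of H3K27me3. Its fold over IgG was 8.54 (6.95 to 10.5) and 6.63 (5.47 to 8.08) on the first allele, and 5.80 (4.67 to 7.23) and 4.41 (3.61 to 5.41) on the second. The intervals of both alleles overlap at E11.5 but not at E12.5. Atoh8 is named here after its values were seen, and intervals that exclude 50% were found for 5 members and 19% of all genes at E11.5, for 8 and 24.3% at E12.5, and for 1 and 14.4% in summed IgG.

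**Figure D5:**
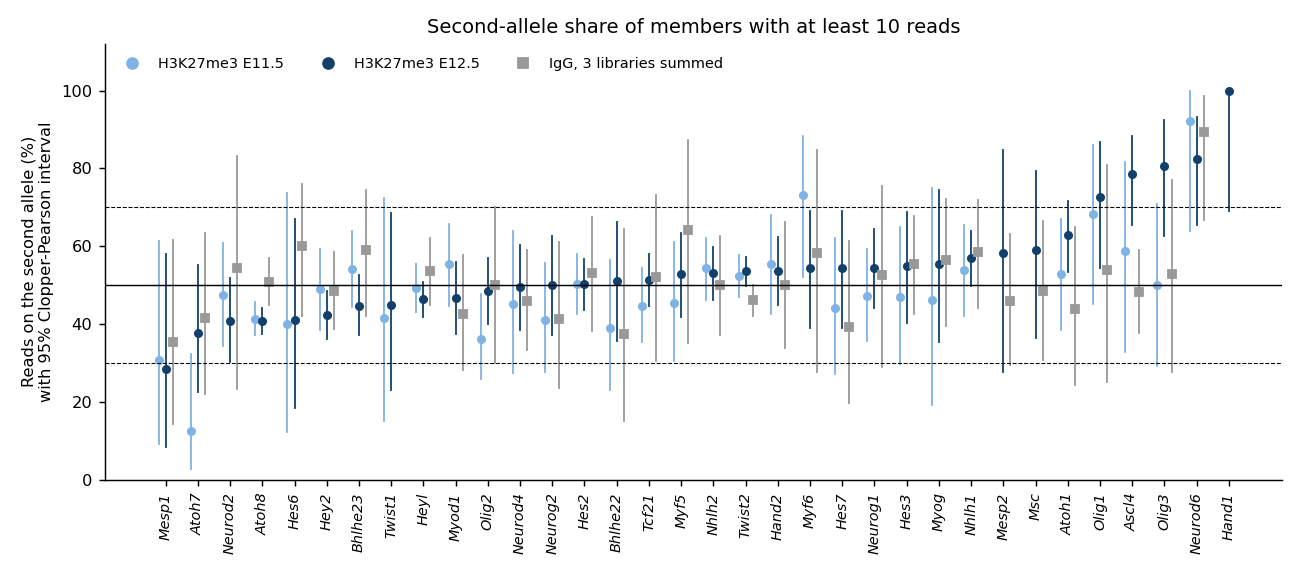
The share of reads on the second allele is given in percent for the 34 members with at least 10 reads in H3K27me3 at E12.5, beside E11.5 and summed IgG where these had 10, with Clopper-Pearson 95% intervals. Most points lie between the dashed lines at 30% and 70%, and Neurod6 lies above 70% in IgG too.

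Partners and upstream genes of these factors were read against the same background of 15.6% and 14.8% of all genes. E proteins and Id proteins, the common dimer partners and their inhibitors, had 0 of 7 genes past 2-fold at either stage (with 1 library per group no test was possible), and medians of 0.692 and 0.752. They ran from Tcf12 at 0.359 to Id3 at 0.957 at E12.5. Broadly used bHLH genes had medians of 0.525 and 0.509, with 2 of 21, Tfeb and Myc, past 2-fold at both stages. At E12.5 they ran from Arnt, a dimer partner of the dioxin receptor and of hypoxia-inducible factors, at 0.405 to Tfeb, a lysosomal regulator, at 3.35. Of 20 Notch pathway genes, 7 at E11.5 and 4 at E12.5 were past 2-fold. Notch1 (2.26), Jag2 (3.75) and the glycosyltransferase gene Lfng (5.16) were past it at E11.5 and stood at 1.31, 1.63 and 1.99 at E12.5. The 4 past it at E12.5 were the ligands Dll4 (8.27), Jag1 (3.61), Dll1 (2.49) and Dll3 (2.46). The receptors Notch1 to Notch4 lay between 0.458 and 1.41 at E12.5, and Adam10, a receptor-cleaving protease, was lowest at 0.359.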

How the data were processed

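CUT&RUN reads of 5 libraries (H3K27me3 at E11.5 and E12.5, IgG at E11.5, E12.5 and E13.5) were analysed, 1 per group. The deposited files give per gene whole-number counts on 2 alleles and a deposited fraction, which equals the second count over the sum of both. The authors' counts are not normalised. Per the submitters' processing notes the build was mm10 and the tools included Trim Galore 0.6.6, Bowtie2 2.4.2, SAMtools 1.11, GATK, MACS2 2.2.7.1 and featureCounts. The role of each, duplicate handling and allele assignment were not given in the sources used here. Fragments without a strain variant are not in the counts, and PCR duplicates may remain, so intervals cover counting error only.

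Levels were scaled to 1000000 autosomal reads. Folds use no pseudocount, and their intervals are exact conditional binomial intervals. Shares have Clopper-Pearson intervals. Lengths per gene are those of the deposited files. Other controls, read minimums, pseudocounts, scalings and thresholds were tried. Gene spans and promoters came from RefSeq tables of GRCm38.p6 (the same assembly as mm10). All 42 members matched by symbol, and 29 have a promoter there. The file's length was within 10% of the RefSeq span for 33 members. Python 3.11.15, numpy 2.4.6, pandas 2.3.3 and scipy 1.17.1 were used, and the fold calculation was tested on simulated data.

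In full were described the 3 highest and 3 lowest neural members by fold at E12.5, 2 and 2 in mesoderm and in Hes/Hey, all muscle genes, members past 1.5-fold between stages or 20 points from 50%, and the highest and lowest of other lists. Members and lists were chosen with earlier results of these data known. The strata of gene length, of marked genes and of CG pairs, the IgG libraries set against each other, and the sums without a long gene were added after seeing the data.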

Additional observations from a re-analysis of the deposited data

How the results depend on the processing

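Counts of members past the fold threshold stayed between 23 and 27 at E11.5 and between 22 and 27 at E12.5 under most settings. These were each IgG library alone, other read minimums, a pseudocount of 1 RPM, scaling to the median gene and a threshold of 1.5-fold. The same settings took 14.74% to 23.75% and 13.86% to 23.94% of all genes. With 1 IgG read required, 27 of 37 members were past 2-fold at each stage. With the lower bound of the interval at 2-fold, 21 and 20 of 32 were called. Dividing by the median fold of all genes gave a member median of 8.73 at E11.5, 4288 and 4322 genes past 2-fold, and a median over all genes of 1 at both stages. The median over all genes at E11.5 and E12.5 was 0.643 and 0.659 with the E12.5 IgG library alone, 0.714 and 0.719 with the E13.5 one, and 0.712 and 0.717 with the pseudocount. Among genes of at most 6 kb, a stratum added after seeing the data, 824 and 798 were past 2-fold. Between stages, 2 members were at least 1.5-fold higher with 1 read required in each library, and 0 with 20 reads, with the pseudocount, at 2-fold or by the interval, while 0 were lower at 2-fold. Over all genes, 1614 were higher and 1684 lower with 1 read, 228 were higher with 20 reads, 264 higher and 204 lower at 2-fold, and 1713 lower by the interval. For allele shares at E11.5, 5 members were called with 5 reads and 5 by the interval, and over all genes 896 with 20 reads and 2913 by the interval. At E12.5, 2 members were called against their own IgG share, as were 1039 of 16979 genes, and 4163 genes were called by the interval. Fewer or more genes enter under other read minimums, and the cause of the other differences was not tested. No paired analysis was possible because each group had 1 library with a file, and for the same reason no replicate could be left out. Depth limits the short genes: 1 read is 0.424 and 0.199 RPM in the H3K27me3 libraries.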

Other observations

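The bHLH genes of the germline itself were mixed. Figla, an oocyte regulator of zona pellucida genes, stood at 3.07-fold over IgG at E11.5 and 2.31-fold (1.62 to 3.31) at E12.5, and Sohlh1, of early oocytes and spermatogonia, at 2.86 and 1.91 (1.23 to 2.97). Its relative Sohlh2 stood at 0.501 and 0.498 (0.378 to 0.650), and Tcfl5, of spermatocytes, at 1.498 and 1.05. Of the 4, 2 were past 2-fold at E11.5 and 1 at E12.5.

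Some members lie next to each other on a chromosome. At E12.5, Myf5 and Myf6, 5.92 kb apart, stood at 10.9 (6.15 to 20.7) and 6.55 (3.42 to 13.6). Olig1 and Olig2, 41.1 kb apart, stood at 4.34 (2.22 to 8.98) and 9.33 (6.11 to 14.8), so that the intervals overlapped in both pairs. Mesp1 and Mesp2, 17.1 kb apart, stood at 1.41 (0.642 to 3.03) and 0.554 (0.263 to 1.09) at E12.5, and both intervals included 1. Hes2 and Hes3, 123 kb apart on chromosome 4, stood at 8.20 and 1.34, with intervals that do not overlap (6.002 to 11.4 and 0.911 to 1.97). Hes3 overlaps Gpr153 in the RefSeq annotation, so reads there could belong to either gene.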
